A study of Homo sapiens with 8 samples.

Results

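The lowest dose of a maleic acid series, 10 µM, was set against untreated cells. SH-SY5Y, a human neuroblastoma line of noradrenergic character that is widely used as a model of nerve cells, was exposed to maleic acid at 10, 50 or 100 µM for 24 h or left without it (Control). Total RNA was amplified, labelled with Cy5 and hybridized to a single-colour human whole-genome oligonucleotide array. The comparison used the 4 arrays of 10 µM and Control out of 8 arrays in all, with every probe of the value table, 31741 probes, of which 24658 carried 1 gene symbol, for 18255 genes. Each dose was 1 RNA sample on 2 technical arrays, so the spread between arrays is technical and a difference here is between 2 RNA samples. Maleic acid and whatever else differed between the 10 µM and the Control sample cannot be told apart.

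Maleic acid is the cis form of butenedioic acid, and its trans isomer, fumaric acid, is an intermediate of the citric acid cycle. It is an electrophile that can bind to thiols such as glutathione, and it is known in rodent kidney for disturbing energy metabolism. Cells that meet thiol-reactive electrophiles commonly release the transcription factor NRF2 from its inhibitor KEAP1, and NRF2 then raises genes of glutathione synthesis and detoxification through antioxidant response elements. Metallothioneins, small cysteine-rich metal-binding proteins, are raised by the zinc-sensing factor MTF1 through metal response elements.

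Few genes were called at 10 µM in the main setting, and the number depended on the scaling and on the arrays used. A difference was called beyond array noise when limma, fitted over the 8 arrays, gave an adjusted p (Benjamini-Hochberg, two-sided) under 0.05 against the spread between technical arrays. By this measure 306 genes were higher at 10 µM (1.68% of 18255) and 386 were lower (2.11%), and 1999 and 2983 genes had an unadjusted p under 0.05. The median log2 fold over all genes was −0.03. In single probes, 547 were higher (1.72%) and 498 lower (1.57%) beyond array noise. Past a 2-fold difference of the means, with no test, 577 probes were higher (1.82%) and 161 lower (0.507%), and 295 and 37 probes met both criteria. The counts of genes beyond array noise fell whichever of the 4 arrays was left out, which leaves 1 array for that dose. Without Control array 1, Control array 2, 10 µM array 1 or 10 µM array 2, 86, 101, 58 and 37 genes were higher beyond array noise, and 7, 12, 17 and 7 were lower. The scaling also changed the balance, since median scaling gave 2004 genes higher and 1928 lower, and the deposited values without scaling gave 523 higher and 7951 lower.

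**Figure D1:**
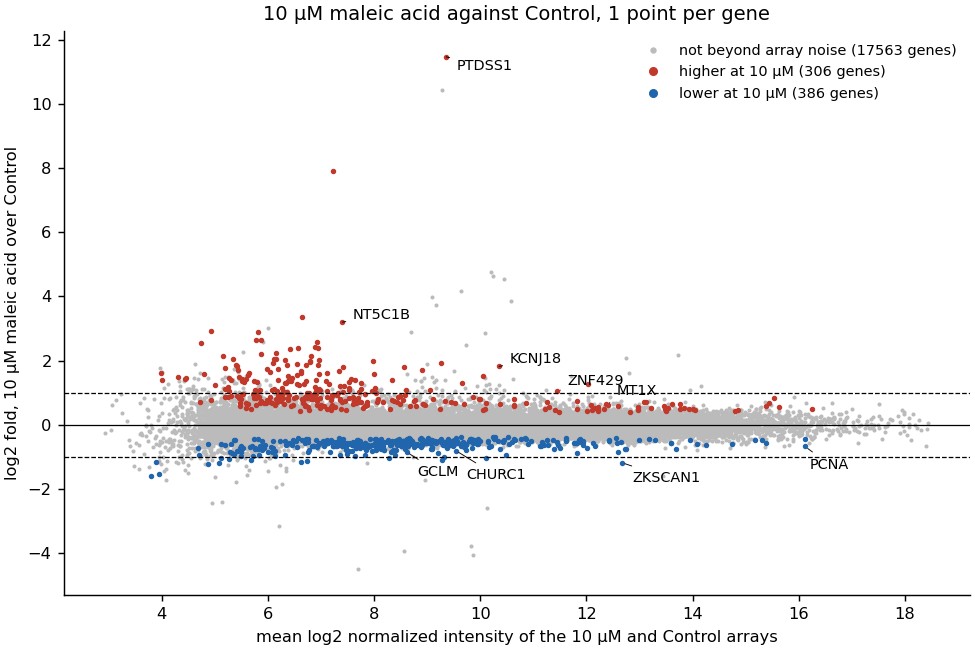
Log2 fold of 10 µM maleic acid over Control (y axis) against the mean log2 normalized intensity of the 4 arrays (x axis), 1 point per gene, with genes beyond array noise in red (higher, 306) and blue (lower, 386) and dashed lines at a 2-fold difference. The red points with the larger folds lie at low intensity, and the blue points reach higher intensities with smaller folds.

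The range of the deposited intensities moved with the comparison. The 95th percentile of an array was 157 and 227 times its 25th percentile at 10 µM, against 372 and 328 times in Control. At 50 µM the ratio was 176 and 193, and at 100 µM it was 214 and 174, so both Control arrays had a wider range than all 6 others. Quantile normalization gives every array the same distribution, and the part of this gap in the calls was not tested. Correlation between technical arrays was 0.993 at 10 µM and 0.992 in Control, and 542 and 627 probes differed more than 2-fold between the arrays of these samples.

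The cells carried markers of neurons and chromaffin cells. The 9 neuronal and chromaffin markers measured had a median normalized intensity of 16162 at 10 µM and 20769 in Control, while glial, fibroblast, epithelial and blood cell markers had medians between 122 and 220 at 10 µM and between 108 and 241 in Control. Of the neuronal markers 1 was called, DBH, the enzyme that makes noradrenaline, at log2 15.93 and 15.85 at 10 µM against 16.37 and 16.31 in Control (log2 fold −0.45, SE 0.08, adjusted p = 0.0446). RNA of a whole culture does not tell fewer cells with a transcript apart from less of it per cell.

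The NRF2 pathway gave few calls, and in both directions. Of 35 measured NRF2 targets and regulators, 1 was higher beyond array noise and 2 were lower, with 32 not called and a median log2 fold of −0.10, beside 1.68% higher, 2.11% lower and −0.03 over all genes. GCLM, the regulatory subunit of the enzyme that limits glutathione synthesis, had log2 intensities of 8.19 and 8.18 at 10 µM against 9.13 and 8.95 in Control. As at every probe called lower, the arrays of the samples did not overlap. The log2 fold was −0.85 (SE 0.09, adjusted p = 0.0138). GCLC, the catalytic subunit of the same enzyme, ran the other way at 10.42 and 10.67 at 10 µM against 9.96 and 8.73 in Control. Its 10 µM arrays lay above both Control arrays, but the Control arrays were far apart and the log2 fold of 1.20 (SE 0.37) missed the threshold (adjusted p = 0.109).

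NFE2L2, the gene of NRF2 itself, was also lower, at 12.35 and 12.37 at 10 µM against 12.80 and 12.74 in Control (log2 fold −0.41, SE 0.08, adjusted p = 0.0454). AKR1B10, an aldo-keto reductase that detoxifies reactive carbonyls, was the member called higher, at 6.77 and 7.18 at 10 µM against 5.01 and 4.52 in Control. Both Control arrays were under a normalized intensity of 50, taken here as background. Its rise is therefore given as at least 2.51-fold (adjusted p = 0.0115). That bound depends on the level of 50. Olfactory receptor probes, of genes this cell type is not known to use, had a median intensity of 108 at 10 µM. The classic targets HMOX1 (heme oxygenase), NQO1 (quinone reductase), TXNRD1 (thioredoxin reductase), SRXN1 (sulfiredoxin) and SLC7A11 (cystine import) had log2 folds of 0.06, 0.48, −0.14, −0.14 and −0.25, none beyond array noise. Of 22 genes of glutathione synthesis and turnover GCLM was the only call, and 0 of 15 glutathione transferases were called.

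Among 29 metallothioneins and zinc transporters 1 was called, MT1X. Its log2 intensity was 12.66 and 12.71 at 10 µM against 11.999 and 12.11 in Control, a log2 fold of 0.63 (SE 0.10, adjusted p = 0.0375). MT2A, MT1E and MT1A had log2 folds of 0.23, 0.22 and 0.34, which did not pass the test, and SLC30A1, the zinc exporter that zinc also raises, had −0.44 (adjusted p = 0.075). MT1X was above Control by 0.33 at 50 µM and by 0.03 at 100 µM on the log2 scale, against the same Control sample. Of 43 called genes, the list members with the largest folds and others named here, 6, 11, 9 and 5 passed without Control array 1, Control array 2, 10 µM array 1 and 10 µM array 2, and 4 passed each time (KCNJ18, STEAP4, PTDSS1 and KIF15). MT1X was lost without each of the 4 arrays, with an adjusted p from 0.109 to 0.172, GCLM without Control array 1 and without either 10 µM array (0.0719 to 0.087), NFE2L2 without each of the 4 (0.124 to 0.213), and AKR1B10 without 10 µM array 2 (0.077).

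The promoters of GCLM, MT1X and MT2A are shown because they carry the elements through which these factors are known to act. Sequences are from RefSeq on GRCh38.p14, 250 bases before to 50 after the gene's start, in the direction of transcription. Capitals mark TGACNNNGC, the core of the antioxidant response element, in GCLM, and TGCNCNC, the core of the metal response element, in MT1X and MT2A, on either strand.
GCLM, chr1:93909381-93909680, minus strand: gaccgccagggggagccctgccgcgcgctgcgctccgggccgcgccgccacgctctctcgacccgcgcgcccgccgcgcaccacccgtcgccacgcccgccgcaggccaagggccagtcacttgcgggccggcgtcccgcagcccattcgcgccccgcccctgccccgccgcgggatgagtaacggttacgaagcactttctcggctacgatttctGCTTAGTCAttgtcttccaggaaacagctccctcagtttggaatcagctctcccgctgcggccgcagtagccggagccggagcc
MT1X, chr16:56682220-56682519, plus strand: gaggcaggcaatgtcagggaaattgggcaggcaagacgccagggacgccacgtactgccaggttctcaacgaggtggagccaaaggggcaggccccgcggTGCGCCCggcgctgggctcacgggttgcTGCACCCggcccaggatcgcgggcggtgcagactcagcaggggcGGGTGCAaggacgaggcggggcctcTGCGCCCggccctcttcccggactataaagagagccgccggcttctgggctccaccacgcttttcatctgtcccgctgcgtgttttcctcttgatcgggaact
MT2A, chr16:56608334-56608633, plus strand: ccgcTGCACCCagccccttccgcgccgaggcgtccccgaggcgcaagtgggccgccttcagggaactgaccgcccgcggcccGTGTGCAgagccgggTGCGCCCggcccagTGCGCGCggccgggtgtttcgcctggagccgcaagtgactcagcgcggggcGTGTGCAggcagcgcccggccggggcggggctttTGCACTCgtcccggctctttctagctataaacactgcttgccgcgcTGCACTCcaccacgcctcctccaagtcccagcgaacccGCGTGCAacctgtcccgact

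GCLM held 1 match to TGACNNNGC, a motif found in 13.6% of 27305 promoters of this length and in 7 of 25 NRF2 list members with a promoter in the table. MT1X held 4 matches to TGCNCNC and MT2A held 8, where 55.2% of all promoters held at least 1. A match is a run of letters and not a measured binding site.

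Other stress responses to a toxic compound gave 0 or 1 call a list, beside 1.68% higher and 2.11% lower over all genes, shares at which lists this short hold about 1 call. Heat shock genes had 0 of 26 called, with a median log2 fold of −0.03, and the inducible chaperones HSPA1A and HSPA1B had log2 folds of −0.09 and −0.27. Inflammatory and NF-kB genes had 0 of 23, p53 targets 0 of 27, and BCL2 family genes and apoptosis executors 0 of 30. In the unfolded protein and ATF4 response 1 of 37 was called. XBP1, the transcription factor of that response, had 12.60 and 12.55 at 10 µM against 12.05 and 12.15 in Control (log2 fold 0.48, SE 0.08, adjusted p = 0.0403), whereas DDIT3, ATF4 and ASNS had log2 folds of 0.21, 0.14 and 0.22 that did not pass. The call of XBP1 was lost whichever of the 4 arrays was left out (adjusted p 0.113 to 0.193). Interferon-stimulated genes had 1 of 22 lower (ISG20) and immediate early genes 1 of 30, KLF4, which was under the background level on all 4 arrays and is given no fold.

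Energy metabolism, which maleic acid disturbs in kidney, gave a call in the lists of respiratory complexes III and IV and of ATP synthase and in no other of its lists, beside 1.68% higher and 2.11% lower over all genes. None of 28 citric acid cycle enzymes, 17 ketone body and succinyl-CoA enzymes, 35 glycolysis and hypoxia genes or 26 cholesterol synthesis and uptake genes was called, with medians of −0.05, −0.04, −0.03 and 0.04. Transporters of dicarboxylates and organic anions, which could carry the compound into the cell, had 0 of 22 called and a median of 0.15, with 16 members above 0. In the respiratory chain, complex I had 0 of 36 called. Complexes III and IV had 1 of 23 and ATP synthase 1 of 19, both bright transcripts, COX7A2 of complex IV (log2 fold 0.56, adjusted p = 0.0403) and ATP5F1E, the epsilon subunit of ATP synthase (0.71, adjusted p = 0.0427). RPL29 and RPS27L stood beside them among 76 cytosolic ribosomal protein genes, with log2 folds of 0.68 and 0.65. No gene of that list was called lower, while 29 of the 76 had a log2 fold below 0. At the shares over all genes a list of this size would also hold few calls.

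Lists of growth and genome maintenance genes held 1 or 2 calls each, all lower, at shares near the 2.11% lower over all genes. PCNA, the sliding clamp of DNA polymerase, was the call among 50 cell cycle genes, at 15.83 and 15.71 at 10 µM against 16.48 and 16.43 in Control (log2 fold −0.68, SE 0.13, adjusted p = 0.05 after rounding). Of 49 DNA repair genes 2 were lower, POLK (a translesion polymerase) and MSH3 (mismatch recognition), each at −0.58. POLK had 2 probes, and both were lower beyond array noise, at −0.54 and −0.62. SUV39H2, a methyltransferase that marks heterochromatin, was lower by 0.81 on the log2 scale (SE 0.12, adjusted p = 0.028) and was the call among 47 histone methylation and heterochromatin genes. RICTOR, which defines mTOR complex 2, fell by 0.63 and was the call among 31 genes of the IGF, PI3K and AKT axis. PCNA, POLK, MSH3, SUV39H2 and RICTOR each lost the call whichever of the 4 arrays was left out (adjusted p 0.0776 to 0.215).

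Neuronal and calcium genes gave isolated calls in both directions, about as many as lists of this size would hold at the shares over all genes (1.68% higher and 2.11% lower). Of 46 calcium channels and stores 1 was higher, CACNA1A (the pore of P/Q-type channels), and 2 were lower, the calcium pumps ATP2A1 and ATP2B4 (log2 folds −0.55 and −0.39). CACNA1A rested on 1 of its 2 probes, at 7.44 and 7.54 at 10 µM against 5.83 and 5.68 in Control, while the other had 6.34 and 5.83 at 10 µM against 6.25 and 6.07 in Control. The 2 probes of the same gene thus differed, with log2 folds of 1.73 and −0.08. Of 37 glutamate and GABA receptor subunits GABRB2 and GABRB1 were higher (log2 folds 1.00 and 0.86). The 32 genes of the neuronal cytoskeleton and growth cone had 0 called and a median of −0.18 with 8 members above 0, and the 11 genes that the study named for calcium or thiols had 0 called and a median of 0.21. This last list was chosen in the study on these samples, so its direction is not independent. Of 11 qPCR reference genes 0 were called. HPRT1 had 13.99 and 13.60 at 10 µM against 14.49 and 14.10 in Control, and its arrays did not overlap, although the log2 fold of −0.50 (SE 0.17) missed the threshold (adjusted p = 0.132).

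Among the lists, the most calls fell to zinc finger genes named ZNF, mostly DNA-binding proteins of the KRAB class that silence transposable elements. Of 474 measured, 34 were lower at 10 µM (7.17%) and 4 higher (0.844%), beside 2.11% and 1.68% of all genes, and 152 had an unadjusted p under 0.05 on the lower side against 25 on the higher side. The median log2 fold was −0.16 (SD 0.02 between array pairs), with 142 genes above 0. ZNF117 had 6.23 and 5.83 at 10 µM against 7.14 and 7.27 in Control (log2 fold −1.18). ZNF440 had 5.92 and 5.79 at 10 µM against 6.82 and 6.79 in Control (−0.95). ZNF138 had 7.19 and 6.90 at 10 µM against 7.87 and 8.04 in Control (−0.91). None of these arrays overlapped between the samples, which also held at all 498 probes lower beyond array noise. The 4 higher members were ZNF429 (1.05), ZNF716 (0.82), ZNF430 (0.72) and ZNF416 (0.63). Without Control array 1, Control array 2, 10 µM array 1 or 10 µM array 2, 0, 1, 3 and 0 ZNF genes were called lower in place of 34, and the count was also 0 when the fit, or the normalization, used the 4 arrays of these 2 samples alone. It was 7 with the replicate block, 73 with median scaling and 270 with no scaling.

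On chromosome 19, where many ZNF genes lie in clusters, 20 of 222 were lower and 3 higher, with a median of −0.22. Elsewhere 14 of 252 were lower and 1 higher, with a median of −0.09. Genes of chromosome 19 not named ZNF had 9 lower and 9 higher of 1052 and a median of −0.00. These locations are from the GRCh38.p14 gene table, and the ZNF genes share sequence, so that a probe may read more than 1 of them.

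At the higher doses the ZNF median against the same Control was −0.20 at 50 µM and −0.30 at 100 µM, beside −0.16 at 10 µM. These 3 values share the Control sample.

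**Figure D2:**
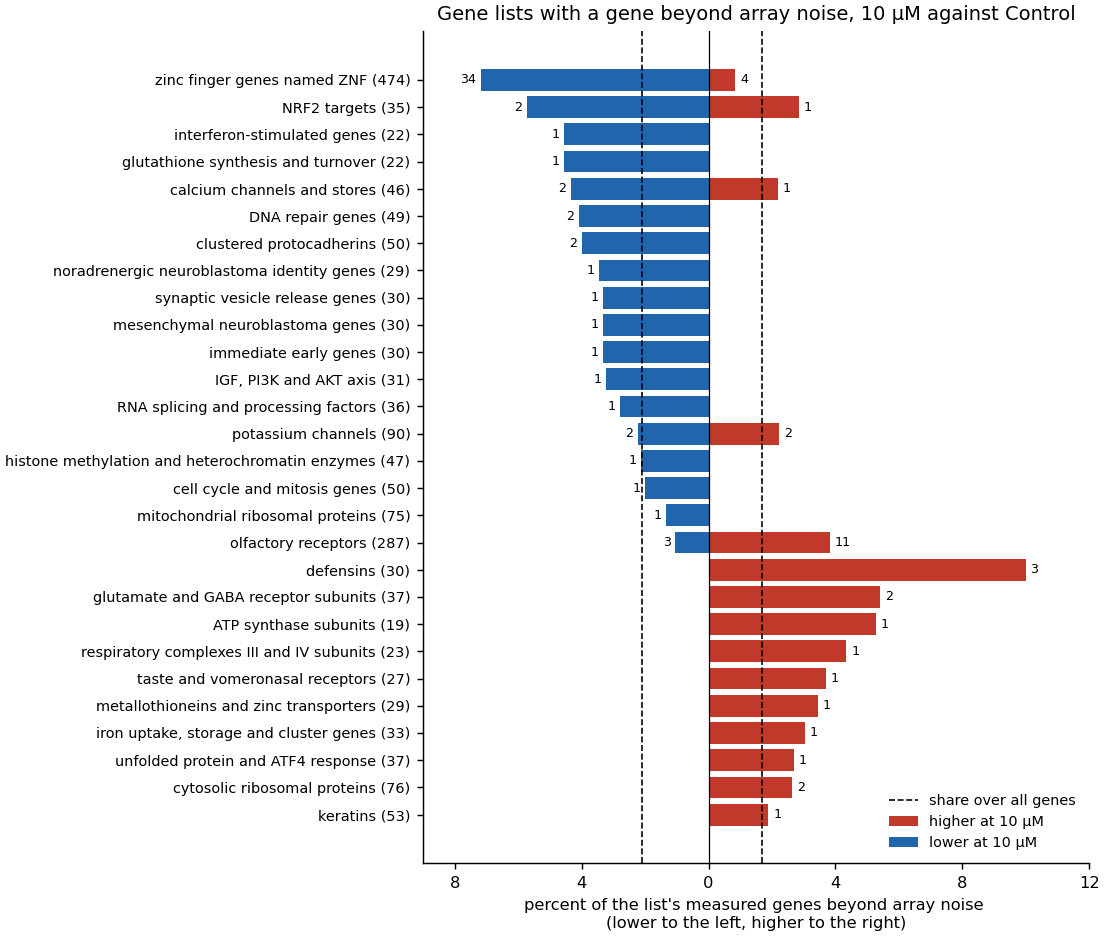
Percent of each list's measured genes (number in brackets) beyond array noise at 10 µM against Control, lower to the left and higher to the right, with the number of genes at the bar's end and dashed lines at the share over all genes (2.11% lower, 1.68% higher). The ZNF list has 34 genes lower and 4 higher, while most other bars stand for 1 to 3 genes. Lists with 0 calls are not drawn, nor are the cell type marker lists, of which neuronal and blood cell markers each had 1 gene lower.

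Olfactory receptors and defensins, families not known for a role in nerve cells, held some of the higher calls. Of 287 olfactory receptors 11 were higher (3.83%, beside 1.68% of all genes) and 3 lower with a median of 0.14, and of 30 defensins 3 were higher. Probes of similar brightness were also called higher more often than all probes. In the second dimmest of 5 intensity bins, with a median of 120 at 10 µM, 242 of 6348 probes were higher beyond array noise. Of 291 olfactory receptor probes 8 were. Potassium channels had 2 of 90 higher and 2 lower (2.22% each way), near the shares over all genes. The larger of the higher calls was KCNJ18, a muscle channel nearly identical to its paralogs, and the other was KCNA1, a channel of neurons. KCNJ18 had 11.24 and 11.29 at 10 µM against 9.35 and 9.54 in Control, a log2 fold of 1.82 (SE 0.13, adjusted p = 0.00387). DEFB115, an antimicrobial peptide gene, had 6.94 and 7.35 at 10 µM against 4.71 and 5.48 in Control. Both Control arrays lay under the background level of 50, so it is given as at least 2.83-fold higher. That bound depends on the level of 50. The median intensity of the olfactory receptor probes was 108 at 10 µM and 103 in Control, which serves as a level of probes whose genes this cell type is not known to use. Of the 577 probes more than 2-fold higher, 367 lay under that median in Control, and 215 lay under 50 on both Control arrays.

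Single genes were taken as the 10 highest and 10 lowest probes among those with 1 symbol, beyond array noise and at 50 or more on every array of both samples. The rule also asked for no overlap between the samples' arrays. NT5C1B, a cytosolic nucleotidase that makes adenosine from AMP, had the highest fold. Its log2 intensity was 9.0 and 9.0 at 10 µM against 5.83 and 5.78 in Control, a 9.16-fold difference (SE 0.14 on the log2 scale, adjusted p = 0.000749). Its mean intensity in Control was 55.9, near the background level of 50. PABPC5, a poly(A)-binding protein, had 9.04 and 9.0 at 10 µM against 6.66 and 6.72 in Control, or 5.03-fold. HRH1, the histamine H1 receptor, had 8.66 and 8.80 at 10 µM against 6.47 and 6.60 in Control, or 4.59-fold. The separation of the samples' arrays at these probes follows from the rule that chose them.

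The other 7 of the 10 highest had folds from 4.37 to 3.91. DSPP, a protein of dentin, had 7.87 and 7.87 at 10 µM against 5.77 and 5.72 in Control (4.37-fold). PGCKA1 had 8.54 and 8.81 at 10 µM against 6.74 and 6.41 in Control (4.29-fold). GABRB2, a subunit of GABA-A receptors, had 8.04 and 8.07 at 10 µM against 5.91 and 6.16 in Control (4.04-fold). The dopamine D5 receptor DRD5 also belonged to this set, with more spread between its treated arrays, at 8.25 and 7.68 at 10 µM against 5.94 and 5.97 in Control (4.03-fold). TEX47 had 8.98 and 8.98 at 10 µM against 7.07 and 6.89 in Control (4.0-fold). The calpain CAPN13 had 7.69 and 7.87 at 10 µM against 5.77 and 5.81 in Control (3.97-fold). The last of the set was the ABC transporter ABCB5, whose Control arrays were nearly equal, with 9.08 and 9.15 at 10 µM against 7.15 and 7.15 in Control (3.91-fold). Their adjusted p ranged up to 0.0115, that of TEX47. In Control, all of the 10 highest but TEX47 (126) and ABCB5 (142) lay at or under the olfactory receptor median of 103. DSPP and CAPN13, at 53.7 and 55.4, were near the background level of 50, so the size of such folds is uncertain.

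The 10 lowest differed by less. CHURC1, a zinc-binding regulator known from chick embryos, had 9.05 and 9.26 at 10 µM against 10.45 and 10.46 in Control (log2 fold −1.29, SE 0.16, adjusted p = 0.0152). SLC4A7, a sodium bicarbonate cotransporter, had 7.79 and 7.66 at 10 µM against 9.11 and 8.87 in Control (−1.26). PARD6B, a cell polarity protein, had 7.31 and 6.74 at 10 µM against 8.39 and 8.12 in Control (−1.23), the widest gap between 10 µM arrays among these 3. ZKSCAN1, a zinc finger factor, was the brightest of the set at 12.16 and 11.98 at 10 µM against 13.33 and 13.18 in Control (−1.18). As the rule required, the arrays of the next 3 did not overlap between the samples either. TMF1, a golgin, had 8.12 and 7.98 at 10 µM against 9.21 and 9.15 in Control (−1.13). DIP2A had 8.5 and 8.33 at 10 µM against 9.51 and 9.57 in Control (−1.12). ZNF283 had 6.17 and 6.11 at 10 µM against 7.14 and 7.35 in Control (−1.11). ZNF117, given above, was at −1.18, and FAM76A and MIX23 were each at −1.15.

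**Figure D3:**
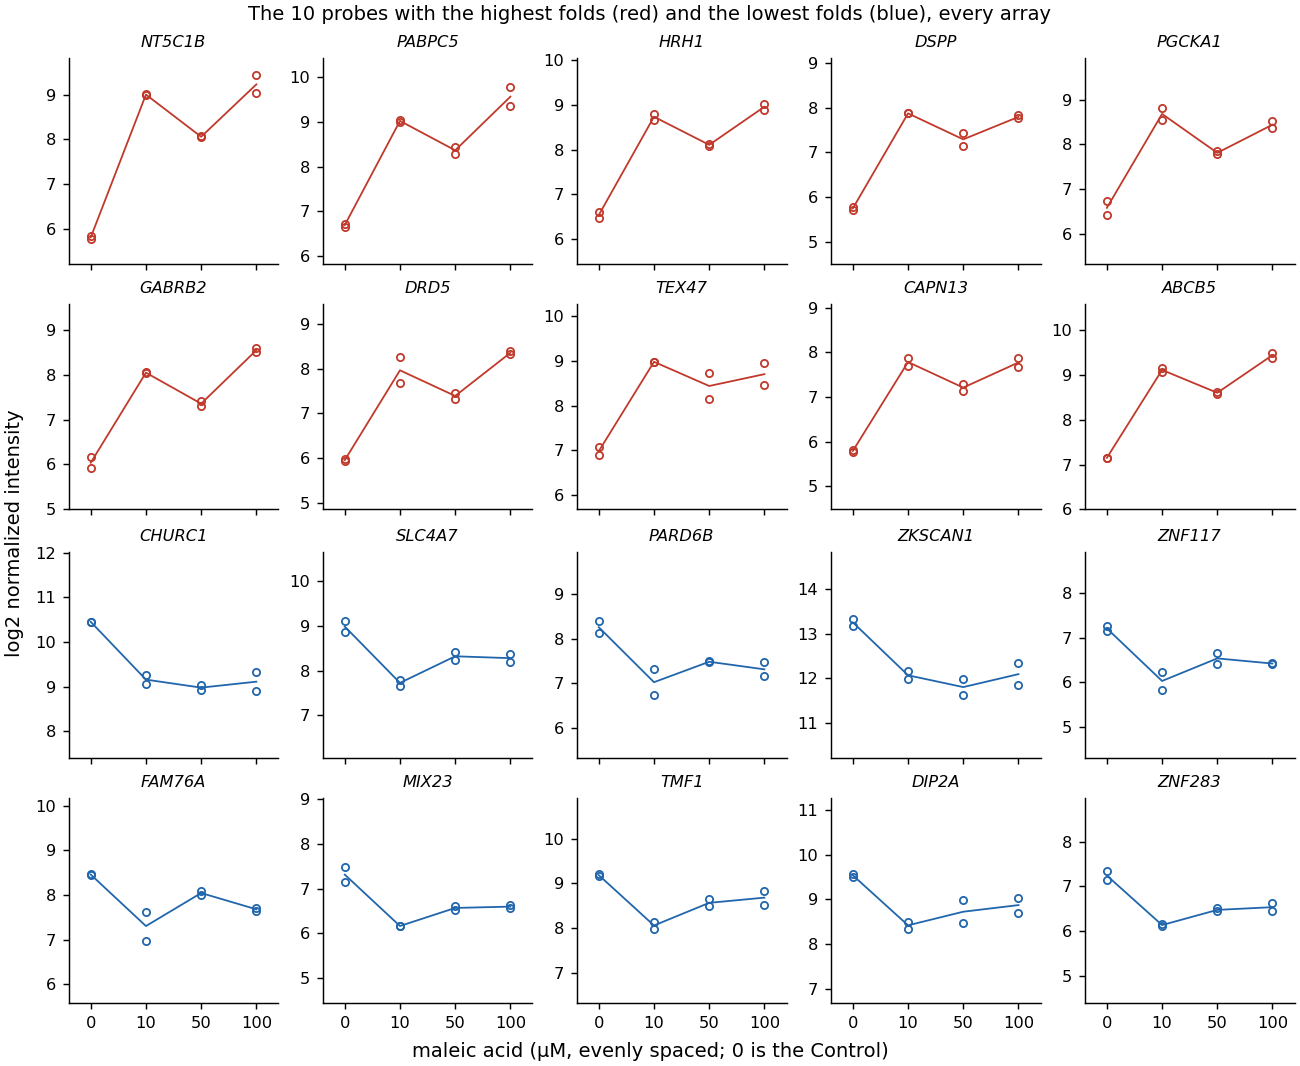
Log2 normalized intensity (y axis, each panel spanning the same range) of the 10 highest (red) and 10 lowest (blue) probes at 0 (Control), 10, 50 and 100 µM, with a circle for each technical array and a line through the means. In the red panels the Control lies below all 3 doses and 50 µM lies below 10 and 100 µM, and in the blue panels the Control lies above all 3 doses.

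Other probes of the same genes did not share the higher values. GABRB2 had a second probe at 7.84 and 7.73 at 10 µM against 7.78 and 7.82 in Control, a log2 fold of −0.01 where the first had 2.02. HRH1 had a second at 5.83 and 5.99 at 10 µM against 6.56 and 6.47 in Control, a fold of −0.60 in the opposite direction. ABCB5 had 3 other probes at −0.05, 0.27 and 0.19, and PABPC5 had 1 at 0.43. The same held over all genes. Of 354 genes with a probe higher beyond array noise, 159 had more than 1 probe, and 2 of these had more than 1 probe called higher. Their 203 other probes had a median log2 fold of −0.03, with 46.8% above 0, where 42.7% of all 11853 probes of genes with more than 1 probe were above 0. The called probes had a median log2 fold of 1.02. The other probes were dimmer, with a median intensity of 95.5 against 161 for the called ones. Probes of a gene can read different transcripts or exons, and no probe sequence was used here.

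For the genes with a lower probe the other probes leaned the same way. Of 417 such genes 253 had more than 1 probe, and 11 of these had more than 1 called lower. Their 310 other probes had a median of −0.20, with 73.2% below 0, where 57.3% of all 11853 were below 0. These other probes were brighter than the called ones, with a median intensity of 734 against 314, and all 11853 had 684. The other probes of genes with a higher probe had 95.5, so the 2 directions are set side by side at unlike brightness. Single genes varied. DIP2A had its second probe at −0.87, also called lower, and a further one at 0.04, while SLC4A7 had a second, brighter probe at 0.00 (10.04 and 10.42 at 10 µM against 10.20 and 10.25 in Control), and CHURC1 and TMF1 had theirs at −0.33 and −0.22.

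**Figure D4:**
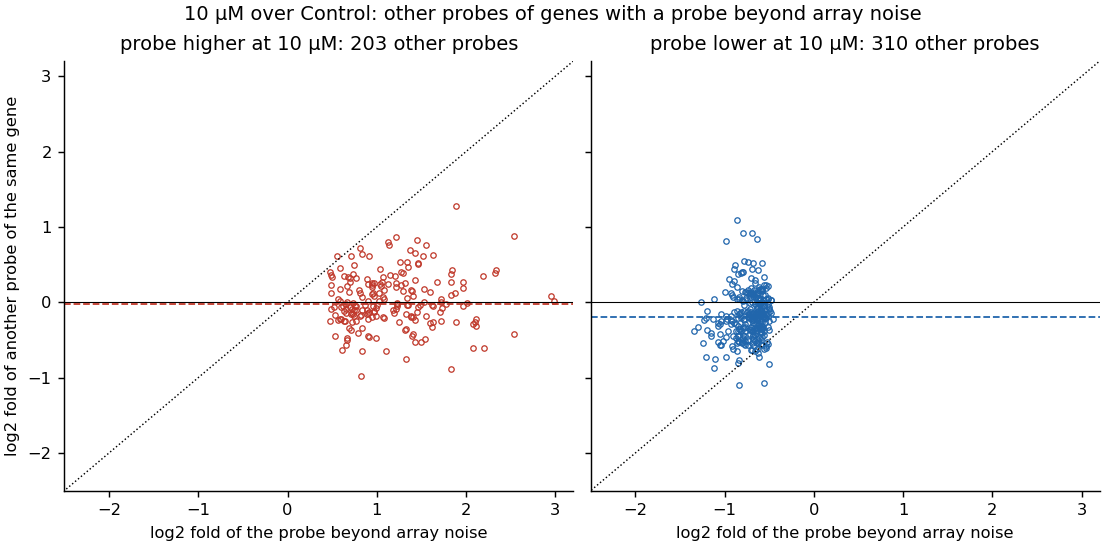
Log2 fold (10 µM over Control) of every other probe of a gene (y axis) against that of its probe beyond array noise (x axis), for genes with a higher probe (left, 203 other probes) and a lower probe (right, 310), with dashed lines at the medians and a dotted line of equal folds. The median is −0.03 on the left and −0.20 on the right, and few points come near the line of equal folds on the left.

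Probes more than 2-fold apart were mostly dim in both directions. With all probes in 5 bins by mean intensity, from dimmest to brightest, 185, 185, 135, 57 and 15 were more than 2-fold higher, and 123, 18, 14, 3 and 3 were more than 2-fold lower. The probes more than 2-fold higher had a median intensity of 186 at 10 µM and 60.3 in Control, and those more than 2-fold lower had 22.1 at 10 µM and 55.6 in Control. In the same bins 107, 242, 120, 39 and 39 probes were higher beyond array noise, and 71, 159, 168, 71 and 29 were lower. Beyond array noise the higher probes had a median of 193 at 10 µM and 78.9 in Control, and the lower ones 212 at 10 µM and 333 in Control.

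Few probes set 10 µM apart from all other doses. A dose was counted as apart at a probe when both of its arrays lay more than 2-fold from the mean of each of the 3 other doses on the same side, with no test. The 10 µM sample was apart at 10 probes, 8 higher and 2 lower. Control was apart at 141 probes, 8 higher and 133 lower, 50 µM at 15 (10 higher and 5 lower) and 100 µM at 43 (14 higher and 29 lower). Without either 10 µM array the count for 10 µM was 127 or 105, and without either Control array that for Control was 357 or 388, since 1 array then stood for the dose. Between treated doses, 50 µM against 10 µM had 1 probe higher and 2 lower beyond array noise, with 1424 and 1438 at an unadjusted p under 0.05, and 100 µM against 10 µM had 5 higher and 21 lower, with 4100 and 4085.

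Of the 10 probes, 1 was beyond array noise against Control, that of PTDSS1, which makes phosphatidylserine. Its log2 intensity was 14.99 and 15.20 at 10 µM against 4.09 and 3.15 in Control, and it was 3.05 and 3.37 at 50 µM and 3.42 and 3.31 at 100 µM. The gene was thus near the bottom of the scale on 6 arrays and near the top on 2, at least 701-fold higher by the bound (adjusted p = 6.9e-05), and it had 1 probe. Such a span also appeared between technical arrays of the same RNA at other probes. Of 31741 probes, 61 differed more than 16-fold between the arrays of a dose, and 31 of these were more than 2-fold apart between 10 µM and Control with 0 beyond array noise. CCNB1IP1, also among the 10, had 14.51 and 14.49 at 10 µM against 3.22 and 4.92 in Control, but 2.39 and 14.76 at 50 µM and 3.42 and 14.73 at 100 µM. EID2 had 10.89 and 11.16 at 10 µM against 10.85 and 3.72 in Control, and 11.39 and 2.45 at 50 µM. What set these spots to a low value on single arrays was not tested.

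The others of the 10 were GCLC, given above, SIX2, FRMPD3, TAOK2, CCDC178 (lower) and 2 probes with no gene symbol. SIX2, a homeobox factor of kidney progenitors, had 14.72 and 14.89 at 10 µM against 11.76 and 13.50 in Control. At 100 µM it had 12.36 and 15.04, so 1 array there lay above both 10 µM arrays. FRMPD3 had 7.71 and 7.34 at 10 µM, but 7.60 and 3.73 at 50 µM and 4.28 and 7.64 at 100 µM. The rule compared 10 µM with the means of the other doses and not with their single arrays. TAOK2, a stress kinase, had 13.21 and 13.40 at 10 µM against 11.58 and 11.91 in Control (adjusted p = 0.132). None of these others of the 10 was beyond array noise against Control. Read across doses, GCLC was 9.96 and 8.73 in Control, 10.42 and 10.67 at 10 µM, 9.31 and 9.47 at 50 µM and 8.29 and 8.64 at 100 µM, so its 10 µM arrays were its highest and its 100 µM arrays its lowest. KIF15, a mitotic kinesin chosen here after its values were seen, showed the same kind of span with Control as the sample apart, at 11.15 and 11.24 at 10 µM against 3.22 and 3.31 in Control, and between 10.94 and 11.31 at the higher doses.

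The probes higher at 10 µM tended to share an order over the doses. The comparison of 100 with 50 µM used neither sample of the 10 µM call, although all arrays shared the normalization and the estimate of noise. Of the 295 probes higher at 10 µM by both criteria, 286 (96.9%) were higher at 100 than at 50 µM, with a median log2 difference of 0.67, where 49.6% of all probes were and the median was −0.00. Of all 547 higher beyond array noise, 481 (87.9%) were. Of the 498 lower ones, 177 (35.5%) were higher at 100 than at 50 µM, with a median of −0.08. The probes higher at 10 µM tended to be lowest in Control and to lie lower at 50 µM than at 10 or 100 µM. This order does not follow the dose. Its parts that involve Control or 10 µM were favoured by the choice of the probes, unlike that of 100 against 50 µM. Against Control, the medians of the 547 probes were 1.06, 0.73 and 1.29 at 10, 50 and 100 µM, and those of the 498 were −0.67, −0.53 and −0.62, all against the same Control sample and chosen on the 10 µM values.

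**Figure D5:**
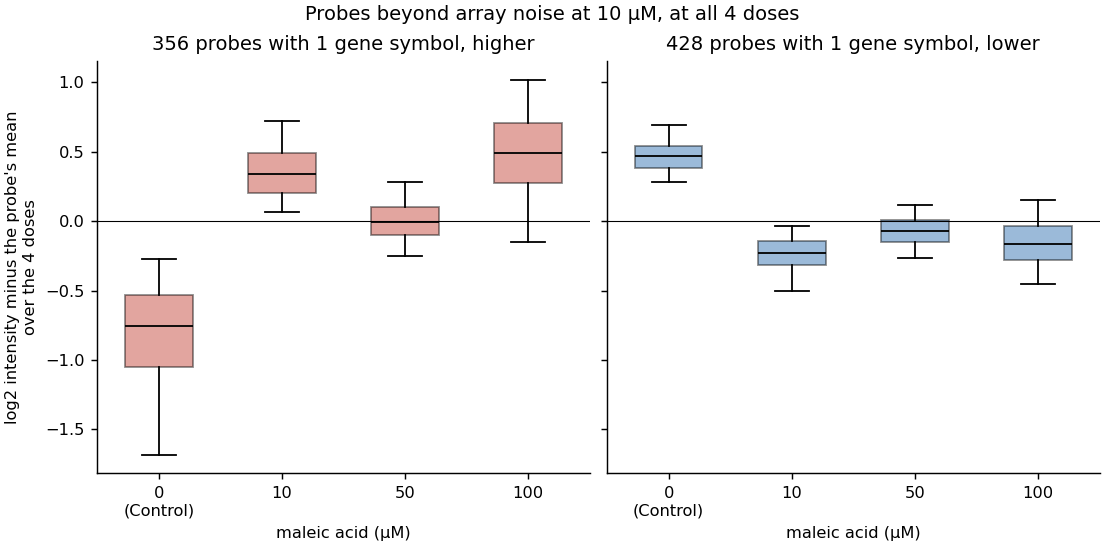
Log2 intensity minus the probe's mean over the 4 doses (y axis) at 0 (Control), 10, 50 and 100 µM for probes with 1 gene symbol beyond array noise at 10 µM, higher (left) and lower (right). Boxes span the quartiles with the median, and whiskers the 5th to 95th percentiles. The Control and 10 µM values chose the probes. On the left 50 µM lies below 10 and 100 µM, and on the right the 3 doses lie close together below Control.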

How the data were processed

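The deposited table gives linear intensities for 8 arrays, some of them negative. According to the methods, the authors quantified the scans in GenePix, passed the spots through Rosetta Resolver, discarded flagged spots and applied a median scaling. The array medians in the table ran from 336 to 524, so the intensities as deposited were not on a common median. The number of arrays limits the precision.

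Intensities below 1 were raised to 1 and log2 transformed, and quantile normalization was applied over all 8 arrays. Both technical arrays of a dose were averaged. A limma 3.58.1 fit (R 4.3.3) over 4 doses, with 4 residual degrees of freedom, gave standard errors and p-values with Benjamini-Hochberg adjustment over all probes or all genes. It compares RNA samples and not conditions. Background was set at a normalized intensity of 50 once the values were known. Where both arrays of a sample were below it, a bound replaced the fold. The bounds depend on this level, which lies under the olfactory receptor median of 103 in Control. Counts and plots used Python 3.11.15, pandas 2.3.3 and matplotlib 3.10.9.

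Names came from the platform annotation (22404 probes with a current symbol, 2177 updated, 77 kept, while 1002 with several symbols and 6081 with none were left unnamed). A gene's value is the mean over its probes. Named probes were the 10 highest and 10 lowest with 1 symbol, beyond array noise, at 50 or more on all 4 arrays and with no overlap between the samples' arrays. Beside them stand probes with 10 µM apart from the other doses, up to 4 members of each list with the largest fold, further list members given for their role, and HPRT1. Of 52 gene lists, S100 proteins, proteasome subunits, histones, sodium channels and keratin-associated proteins had 0 genes called, and each other list that the report leaves out had 1. The comparison, lists and rules were chosen with earlier results of these data known. Alternatives in normalization, floor, offset, filter, arrays left out and probe choice were run for the counts, list medians and named genes.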

Additional observations from a re-analysis of the deposited data

How the results depend on the processing

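Each dose is 1 RNA sample, so no alternative here measures the spread between cultures. Against the main counts of 577 and 161 probes more than 2-fold higher and lower, cyclic loess gave 910 higher, median scaling 4540 and 76, no scaling 2280 and 1395, leaving out the dimmest 25% of probes 341 and 31, an offset of 50 gave 248 and 23, a floor of 32 gave 48 lower, and a 1.5-fold threshold 1883 and 1251. Against 547 and 498 probes beyond array noise, median scaling gave 3318 and 2488, no scaling 983 and 11457, quantile normalization over the 4 arrays of 10 µM and Control 154 and 6, leaving out the dimmest 25% 822 and 1126, the offset 1056 and 1230, the floor of 32 887 and 1012, and a fit on the 4 arrays 173 and 10. For genes (306 and 386) the same settings gave 2004 and 1928, 523 and 7951, 35 and 2, 502 and 834, 633 and 930, 516 and 765, and 50 and 3. For ZNF genes lower (34) they gave 73, 270, 0, 66, 75, 64 and 0. The 4-array settings have fewer samples to estimate the noise. For the others the cause was not tested. Probes with 10 µM apart (10) numbered 5 with median scaling, 3 with no scaling, 6 without the dimmest 25% and 5 with the offset, and those with Control apart (141) numbered 1097, 554, 87 and 38. Over all probes the median log2 fold was −0.03, and it was 0.09 with median scaling and −0.30 with no scaling.

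Leaving out 1 of the 4 arrays gave 676 to 745 probes more than 2-fold higher and 208 to 323 lower, 109 to 252 and 16 to 43 beyond array noise, 37 to 101 and 7 to 17 genes, 0 to 3 ZNF genes lower, 8 to 127 probes with 10 µM apart and 140 to 388 with Control apart. Each of these settings leaves 1 array for a dose. In them the log2 fold of MT1X ranged from 0.58 to 0.69, that of NFE2L2 from −0.44 to −0.38 and that of XBP1 from 0.42 to 0.53. With the technical replicate number as a replicate block, 310 and 93 probes, 133 and 44 genes and 7 ZNF genes lower were called. Deviations of same-numbered arrays of 10 µM and Control correlated at 0.05, and over all pairs of doses between −0.08 and 0.11. These low values show no strong pairing of the arrays by number, but they cannot exclude a weaker one.

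None of the 20 named probes changed sign in any setting (198 values on the same side of the threshold and 61 no longer past it), and the log2 fold of NT5C1B ranged from 2.39 to 3.85 and that of CHURC1 from −1.86 to −1.19. The sign could not change where an array was left out, or where only the fit or the probe filter changed. The rule had asked for no overlap between the samples' arrays on the same normalized values. Cyclic loess kept all 20 past the threshold. Of 43 called genes that are named or have the largest folds of a list, 33 passed with cyclic loess, 24 with median scaling, 26 with no scaling, 41 with the offset, 39 with the floor, 12 with the block and 5 in the fit on 4 arrays. With no scaling, where all probes shift by −0.30, the log2 fold was −0.0115 for MT1X, −0.17 for XBP1 and −0.00440 for RPS27L. KLF4, LYZ and OR4A16, called lower, had 0.52, 0.70 and 0.54 with median scaling and 0.13, 0.32 and 0.15 with no scaling, PCDHGA7 had 0.29 with median scaling, and the brightest probe of GABRB2 had −0.00974. Of 624 list medians under alternatives, 227 moved by more than the spread between array pairs.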

Other observations

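Some gene lists held a single called gene, a share near the 1.68% higher and 2.11% lower over all genes. Among 33 genes of iron uptake, storage and cluster assembly it was STEAP4, a metalloreductase, with 1 probe at log2 7.03 and 7.05 at 10 µM against 3.73 and 4.39 in Control, at least 2.63-fold higher against the background level, and a second at 5.52 and 5.22 at 10 µM against 5.49 and 5.22 in Control. Among 30 mesenchymal neuroblastoma genes it was WWTR1 (TAZ), a co-activator of the Hippo pathway, lower by a log2 fold of −0.59, and among 30 synaptic vesicle release genes RIMS2, an active zone protein, at −0.42. RBM25, a splicing factor, was the call among 36 genes of RNA splicing and processing (−0.52), and MRPS25 that among 75 mitochondrial ribosomal protein genes (−0.64).

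Shares of lower calls varied over the chromosomes, of which some near both ends of the range are given, with no test. By chromosome, 28 of 693 genes of chromosome 4 were lower at 10 µM beyond array noise (4.04%), as were 10 of 255 of chromosome 18 (3.92%) and 40 of 1152 of chromosome 2 (3.47%), against 10 of 1071 of chromosome 17 (0.934%) and 4 of 417 of chromosome 22 (0.959%), beside 2.11% of all genes. Among clustered protocadherins, adhesion proteins that give neurons their identity, 2 of 50 were called lower (4%), PCDHGA7 and PCDHB10. In a list this short that is near the share over all genes. PCDHGA7 had its 10 µM arrays under the background level.

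The calls were also uneven over the probe numbers of the array design. Probes numbered below 44000 had 1.43% higher and 1.31% lower beyond array noise (of 23489), those from 44000 to under 50000 had 2.61% and 2.91% (of 5698), and those from 60000 had 2.39% and 0.94% (of 2554), with median intensities of 432, 391 and 480.

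Several well-known genes had a spot that was near the bottom of the scale on 1 Control array only, chosen here after their values were seen. RASSF1, a tumour suppressor, had log2 intensities of 12.46 and 12.70 at 10 µM against 12.26 and 3.37 in Control, and GLUL, glutamine synthetase, had 15.10 and 14.36 at 10 µM against 14.84 and 3.56 in Control. SLC8A3, a sodium-calcium exchanger, had 12.76 and 12.67 at 10 µM against 11.97 and 4.39 in Control. Their means differed by 4.76, 5.53 and 4.53 on the log2 scale, and none was beyond array noise.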
